A study of Mus musculus with 12 samples.

Results

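Inducible Prdm12 knockout ganglia were compared here with controls that had received the same drug. The comparison takes every library labelled iKO (iKO 1 to 6) and the 4 controls injected with tamoxifen (spelled tamoxyfene in the labels), and leaves out controls 5 and 6, which received corn oil, so that it holds 10 of the 12 libraries. Each library is poly(A) RNA of dorsal root ganglia, the clusters of sensory neuron cell bodies beside the spinal cord, from adult C57Bl6 mice, collected 1 month after the injection. All 6 iKO libraries carry Rosa26Cre ERT2; Fl/Fl, a Cre recombinase at the Rosa26 locus that tamoxifen switches on, with both Prdm12 alleles floxed. Control 1 carries Rosa26Cre ERT2; Fl/+ and is female, and control 2 carries +/+; Fl/+, without Cre, and is female. Control 3 has the genotype of control 2 and is male, and control 4 carries Rosa26Cre ERT2; +/+, with Cre and 0 floxed alleles, and is male. Of the iKO libraries, 1 to 3 are female and 4 to 6 male. Rosa26 is active in nearly every cell type, so the deletion is not restricted to neurons. The labels say neither which exons are floxed nor whether a library holds ganglia of 1 animal, so the p-values reflect only how far these samples vary, which may be partly technical.

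PRDM12 is a zinc finger protein of the PRDM family that represses other genes together with histone-modifying partners. In the embryo it is required for pain-sensing neurons (nociceptors) to form, and inherited loss of it causes insensitivity to pain. Adult nociceptors still express it, and the question of the series is which genes it regulates there. Nociceptors are commonly divided into peptidergic neurons, which release CGRP and substance P, and nonpeptidergic neurons, which carry Mas-related receptors.

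The libraries held 14670363 to 20377766 counts and a count for 25073 to 26592 genes. Levels are given as CPM, a gene's count relative to its library's scaled total. The labelled tissue showed its markers: Avil, of sensory neurons, ranged from 855 to 1130 CPM and Scn10a, the nociceptor sodium channel, from 1045 to 1651 CPM, while the spinal cord marker Mog stayed at or below 0.596 CPM. The iKO 1 library stood apart from all others. Its summed marker genes reached 934 CPM for macrophages, against 306 to 346 CPM in the other 5 iKO libraries and 383 to 437 CPM in controls. Its fibroblast markers summed to 4458 CPM, against 1595 to 1861 CPM and 1864 to 2384 CPM, and its pan-neuronal genes to 11105 CPM, against 13475 to 14458 CPM and 12143 to 13447 CPM. Results are therefore also given without iKO 1.

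Prdm12 itself was strongly reduced in every iKO library. Controls 1 to 4 had 126, 120, 107 and 138 CPM, and the iKO libraries ranged from 18.8 CPM in iKO 1 over a median of 23.9 to 25.4 CPM in iKO 5. The groups lay far apart, and the iKO mean of 23.4 ± 2.44 CPM (SD, n = 6) was 19.1% of the control mean of 123 ± 13.3 CPM (SD, n = 4). The log2 fold change was -2.39 ± 0.09 (SE), with adjusted p = 6.37e-08 in the quasi-likelihood test of edgeR, Benjamini-Hochberg adjusted over 16659 genes. A 2-sided exact permutation test on log2 CPM gave p = 0.00952, the smallest value that 210 relabellings of the 10 libraries allow. Control 1, the only library with Cre and a single floxed allele, was at 104% of the mean of the other 3 controls (122 ± 16.0 CPM, SD), so a reduction with 1 floxed allele was not detectable in it. The reads left in iKO libraries can come from exons outside the deleted stretch, but their source was not tested. The share of cells with the deletion is not known from these counts. Gm13425 is a non-coding gene transcribed from the other strand, shares 8.09% of the Prdm12 exon bases and was picked with its values in view. It also fell, from 89.7 to 56.3 CPM on average (log2 fold change -0.68 ± 0.11 SE). The libraries do not record strand, so reads in the shared stretch cannot be told apart. The call of Gm13425 was lost without control 1 (adjusted p = 0.0656 in the Benjamini-Hochberg-adjusted edgeR quasi-likelihood test).

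Stk32a, Mrgprb5 and Grik1 also separated the groups without overlap, with smaller fold changes than Prdm12. Stk32a, which encodes a serine/threonine kinase, was at 23.1, 19.0, 24.3 and 22.7 CPM in controls 1 to 4 and at 46.7 to 60.4 CPM in iKO libraries (median 52.6). It rose by 1.24 ± 0.09 on the log2 scale, and the lowest iKO library, iKO 6, lay far above the highest control. Mrgprb5, a Mas-related receptor, was at 20.1, 17.5, 21.7 and 17.7 CPM in controls and at 6.42 to 7.88 CPM in iKO libraries (median 6.66). It fell by 1.49 ± 0.09, with hardly any spread among the 6 iKO libraries. Grik1, a kainate-type glutamate receptor subunit, was at 539, 430, 559 and 546 CPM in controls, with control 2 the lowest, and at 227 to 294 CPM in iKO libraries (median 261). It fell by 0.97 ± 0.08, and again no iKO library reached the controls. Adjusted p-values were 3.71e-05 for Stk32a, 1.51e-05 for Mrgprb5 and 8.85e-05 for Grik1 in the Benjamini-Hochberg-adjusted edgeR quasi-likelihood test. Each gene had p = 0.00952 in the exact permutation test, the value of any gene whose groups do not overlap, and 796 tested genes (4.78%) had none. These 3 genes were chosen with earlier results of these data known, so their p-values are descriptions. Mrgprb5 belongs to a family with closely similar copies, so reads could be shared among them and its counts are uncertain. All 3 calls held without each library in turn.

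**Figure D1:**
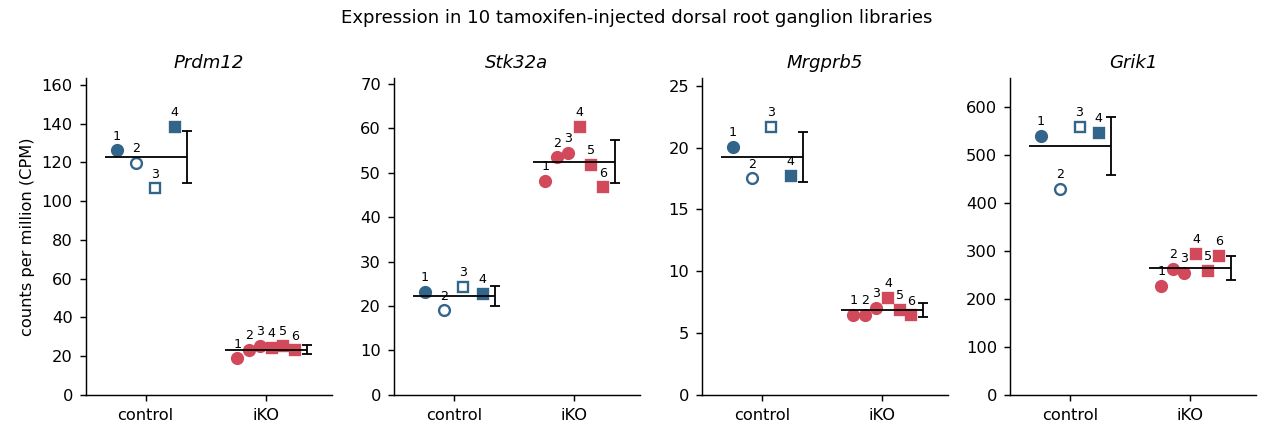
CPM (y axis, linear from 0) of Prdm12, Stk32a, Mrgprb5 and Grik1 in each library, numbered by replicate; circles are female and squares male, open symbols are Cre-free controls, and the line and bar give the mean and SD (n = 4 controls, n = 6 iKO). In each panel the 6 iKO libraries lie entirely on one side of the 4 controls, with Prdm12 at 18.8 to 25.4 CPM against 107 to 138 CPM.

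Promoter sequence is shown for Prdm12, the deleted gene, Mrgprb5, which fell, and Cyp26b1, which rose, to set the targeted gene beside responders of either direction. Each is the 250 bases before the gene's start, 5′ to 3′ on the gene's own strand, taken from RefSeq in build GRCm38.p6 by gene symbol. Capitals mark the E-box CANNTG, a motif bound by basic helix-loop-helix factors, which reads the same on both strands. The Prdm12 stretch lies at chr2:31639787-31640036 (plus strand), that of Mrgprb5 at chr7:48168986-48169235 (minus strand) and that of Cyp26b1 at chr6:84593811-84594060 (minus strand).
Prdm12: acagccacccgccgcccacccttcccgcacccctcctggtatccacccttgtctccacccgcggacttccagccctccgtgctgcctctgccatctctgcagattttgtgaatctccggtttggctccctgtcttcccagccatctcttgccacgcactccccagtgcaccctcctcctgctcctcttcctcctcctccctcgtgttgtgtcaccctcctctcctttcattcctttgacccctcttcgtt
Mrgprb5: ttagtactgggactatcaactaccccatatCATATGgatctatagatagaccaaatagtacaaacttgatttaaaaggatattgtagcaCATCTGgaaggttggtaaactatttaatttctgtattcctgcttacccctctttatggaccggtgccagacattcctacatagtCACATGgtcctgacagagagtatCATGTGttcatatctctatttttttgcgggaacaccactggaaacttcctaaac
Cyp26b1: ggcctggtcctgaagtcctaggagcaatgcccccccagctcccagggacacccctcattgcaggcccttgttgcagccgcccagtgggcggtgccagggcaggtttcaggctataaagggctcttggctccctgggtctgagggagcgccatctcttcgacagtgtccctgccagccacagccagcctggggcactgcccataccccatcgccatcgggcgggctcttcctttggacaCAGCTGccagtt
These letters occurred 0 times before Prdm12, 4 times before Mrgprb5 and 1 time before Cyp26b1. In sequences not printed here, they occurred 0 times before Gng2, which also fell, and 1 time before Arid5a, which also rose. Among promoters of this length, the E-box was present for 66 of 94 matched genes called higher (70.2%) and for 37 of 70 called lower (52.9%), beside 58% of 12156 tested genes. The GC box GGGCGG, searched on both strands, was present for 66% of the genes called higher, 51.4% of those called lower and 56.5% of tested genes. These shares describe the sequences and were not tested.

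Across the transcriptome 235 genes (1.41%) were called at an adjusted p below 0.05, 137 higher (0.822%) and 98 lower (0.588%) in iKO libraries, and 2738 had an unadjusted p under 0.05. Most of the called changes were modest, at a median size of 0.49 on the log2 scale, with 39 larger than 1 in either direction. For 209 of the 235 no iKO library overlapped any control, a separation that 796 of all tested genes (4.78%) showed. By limma-voom with library quality weights 3173 genes were called (19%). By DESeq2, 580 genes were called (3.48%), and 214 of the 235 were among them. Without iKO 1 the count was 1586 of 16487 (9.62%), 1045 higher (6.34%) and 541 lower (3.28%), and all 234 of the called genes that could be tested there were called again. The spread between libraries, as biological coefficient of variation, was 12.6% with iKO 1 and 7.63% without it. Leaving out any other single library gave 69 (without control 1) to 354 genes (without iKO 4), with 71 without control 3 and 238 without control 4.

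**Figure D2:**
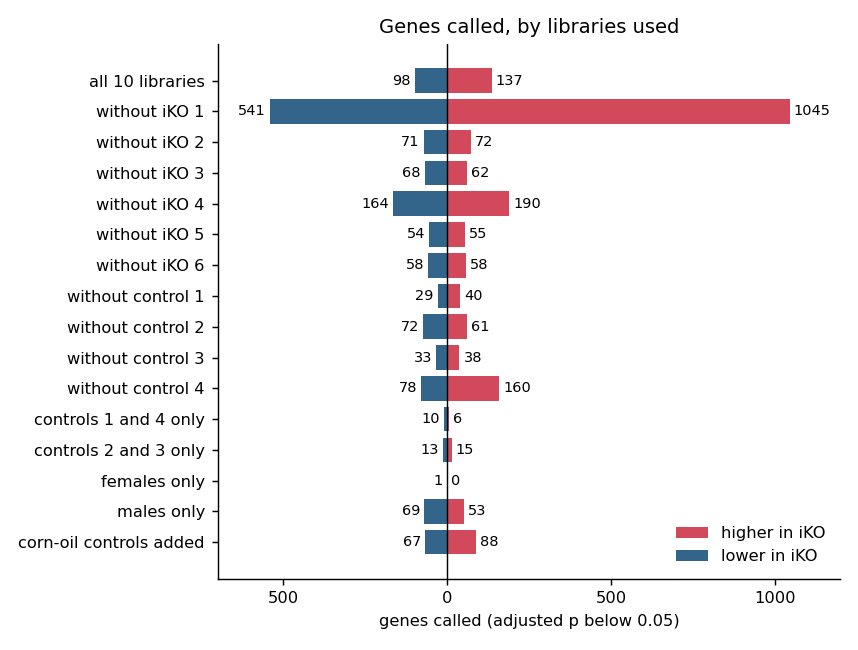
Number of genes called in the edgeR quasi-likelihood test (x axis, adjusted p below 0.05), higher in iKO to the right and lower to the left, for all 10 libraries, with each left out, and for subsets of libraries. The bar without iKO 1 (1045 higher and 541 lower) is far longer than that of all 10 libraries (137 and 98), and the female libraries alone gave 1 call.

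Of 20 genes of nonpeptidergic nociceptors 16 had negative fold changes, 4 fell and 1 rose, with a list median of -0.17 against 0.01 over all genes. Of 18 peptidergic genes 12 had negative fold changes, 1 fell and 1 rose (median -0.10), beside 1.41% of all genes called. Besides Mrgprb5 and Grik1, Otoa, the otoancorin gene (named outside the rule), fell by 0.91 on the log2 scale, from 14.3 to 7.59 CPM on average. Cd55, which encodes a complement-regulating surface protein, was at 683, 552, 714 and 689 CPM in controls and at 447 to 583 CPM in iKO libraries (median 479). It fell by 0.42 ± 0.08, and its groups overlapped through iKO 4 and control 2. Acpp, the acid phosphatase used to mark nonpeptidergic neurons, was at 839, 710, 882 and 857 CPM in controls and at 530 to 669 CPM in iKO libraries, and it fell by 0.39 ± 0.07. In the opposite direction, Agtr1a, an angiotensin II receptor, was at 26.4, 22.5, 29.4 and 25 CPM in controls and at 38.8 to 48.8 CPM in iKO libraries (median 45.8), an increase of 0.81 ± 0.08 with no overlap. The call of Acpp was lost without any of controls 1, 3 and 4 and iKO 5 and 6, and that of Cd55 without these or iKO 3 (adjusted p up to 0.157 for each, without control 1, in the Benjamini-Hochberg-adjusted edgeR quasi-likelihood test). In bulk ganglia, fewer cells of a type and less RNA per cell cannot be told apart.

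Among peptide genes, Calcb, which encodes β-CGRP, was at 152, 122, 168 and 155 CPM in controls and at 201 to 229 CPM in iKO libraries (median 211). It rose by 0.51 ± 0.08 on the log2 scale, with every iKO library above every control. Its relative Calca, the α-CGRP gene, stood at 1242 to 1463 CPM in controls and 1243 to 1333 CPM in iKO libraries and was not called (-0.06 ± 0.07). Smr2, a salivary-type peptide precursor gene, was at 2.82, 4.90, 6.35 and 5.85 CPM in controls and at 1.79 to 3.25 CPM in iKO libraries, and fell by 0.95 ± 0.18. Of 11 genes of the itch-related (NP3) class 2 rose and 0 fell (median 0.01), beside 1.41% of all genes called. Cysltr2, a leukotriene receptor, was at 27.4, 24.9, 24.5 and 26.4 CPM in controls and at 33.1 to 38.5 CPM in iKO libraries, an increase of 0.45 ± 0.06 without overlap. Sst, the somatostatin gene, rose by 0.58 ± 0.12, with iKO libraries at 8 to 15.2 CPM and controls at 5.76 to 9.53 CPM, so the groups overlapped. The call of Smr2 was lost without any of controls 2 to 4 and iKO 3, 5 and 6 (adjusted p up to 0.13), and that of Sst without any control or iKO 2, 3, 5 or 6 (up to 0.202), in the Benjamini-Hochberg-adjusted edgeR quasi-likelihood test. Other genes that define nociceptors, chosen for display outside the naming rule, were not called: the log2 fold changes were -0.13 ± 0.10 for Scn10a, -0.09 ± 0.10 for Scn9a, -0.16 ± 0.11 for Trpv1, -0.22 ± 0.11 for Mrgprd, -0.02 ± 0.09 for Tac1 and 0.05 ± 0.08 for P2rx3.

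Cold-sensing neuron genes had negative fold changes in 8 of 9 cases (median -0.20) and 0 were called. Trpm8, the cold and menthol receptor, was at 49.6, 60.9, 41.4 and 56.0 CPM in controls and at 15.4 to 35.8 CPM in iKO libraries (median 26.7). The groups did not overlap, and iKO 1 was the lowest library. Its log2 fold change of -0.93 ± 0.20 just missed the threshold (adjusted p = 0.0551 in the Benjamini-Hochberg-adjusted edgeR quasi-likelihood test). Without iKO 1 Trpm8 was called (-0.80, adjusted p = 0.0082 by the same test), as it was with the corn-oil controls added (-0.92, adjusted p = 0.0429).

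Chrna6 and Drd1, a nicotinic and a dopamine receptor gene, rose. Chrna6, the α6 nicotinic acetylcholine receptor subunit, was at 114, 101, 120 and 109 CPM in controls and at 179 to 259 CPM in iKO libraries (median 236). It rose by 1.06 ± 0.09 on the log2 scale, and iKO 1 was the lowest of the iKO libraries, at 179 CPM against 232 or more in the other 5. Of 10 nicotinic subunits it alone was called (median -0.21), beside 1.41% of all genes. Its frequent partner Chrnb3 was at 0.62 ± 0.17 and not called with iKO 1, and called at 0.70 without it. Drd1, the dopamine D1 receptor, was at 0.502, 0.522, 0.470 and 0.413 CPM in controls and at 1.46 to 2.65 CPM in iKO libraries (median 1.78), an increase of 1.99 ± 0.24. The groups did not overlap, but levels were low, and Drd1 had enough counts to be tested only through its iKO libraries. Its call is therefore a description. Drd2, the dopamine D2 receptor, was not called (0.18 ± 0.27). Mc4r, a melanocortin receptor, rose by 1.44 ± 0.29, from 0.411 to 1.31 CPM in controls to 1.48 to 3.14 CPM in iKO libraries. Like Drd1, it had enough counts to be tested only through its iKO libraries, so its call is a description. The call of Mc4r was lost without any of controls 1, 3 and 4 and iKO 2, 3, 5 and 6 (adjusted p up to 0.164, without control 3, in the Benjamini-Hochberg-adjusted edgeR quasi-likelihood test).

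Of 62 potassium channel genes 2 fell and 0 rose (median 0.08), beside 0.588% of all genes called lower and 0.822% called higher. Both encode channels opened by calcium. Without iKO 1, 12 of the 62 rose and 5 fell (median 0.13), beside 6.34% of all genes called higher and 3.28% called lower in that fit. Kcnn3, the SK3 channel, was at 7.09, 7.77, 8.29 and 7.71 CPM in controls and at 2.48 to 4.45 CPM in iKO libraries (median 3.28), a fall of 1.19 ± 0.15 on the log2 scale with a wide gap between the groups. Kcnma1, the pore subunit of the BK channel, was at 119, 114, 126 and 127 CPM in controls and at 65.0 to 97.5 CPM in iKO libraries (median 86.2), and fell by 0.51 ± 0.09. Kcnmb1, an accessory BK subunit named outside the rule after its values were seen, was at 56.0, 47.0, 66.2 and 56.4 CPM in controls and at 28.2 to 41.6 CPM in iKO libraries, and fell by 0.70 ± 0.11. Both BK genes separated the groups completely. Kcnma1 was no longer called without control 1 or control 3 (adjusted p up to 0.0802), nor Kcnmb1 without control 1 (adjusted p = 0.0535), in the Benjamini-Hochberg-adjusted edgeR quasi-likelihood test. Among heat, irritant and ligand-gated channels Trpc6, a cation channel, alone was called of 29 (median 0.06). It fell by 0.49 ± 0.09, from 37.4 to 42.8 CPM in controls to 24 to 33.2 CPM in iKO libraries. Trpc6 was not called without control 1 or control 3 (adjusted p up to 0.0903 by the same test). Lists of 15 voltage-gated sodium, 19 calcium channel and 15 GABA receptor genes held 0 called members (medians -0.11, 0.13 and -0.07). Without iKO 1, 1 sodium and 5 calcium channel genes rose, and 0 GABA receptor genes were called.

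Gng2, a G protein γ subunit, was at 404, 372, 422 and 410 CPM in controls and at 235 to 283 CPM in iKO libraries (median 250). It fell by 0.68 ± 0.06 on the log2 scale, and the highest iKO library, iKO 4, lay well below the lowest control. RGS proteins speed the shut-off of G proteins. Of 21 RGS proteins and anchors 1 rose and 2 fell (median -0.09), beside 1.41% of all genes called. Without iKO 1, 2 rose and 7 fell, beside 6.34% of all genes called higher and 3.28% called lower in that fit. Rgs9bp, a membrane anchor of RGS9, was at 1.82, 1.31, 1.82 and 1.93 CPM in controls and at 3.85 to 5.31 CPM in iKO libraries (median 4.86), an increase of 1.46 ± 0.17 without overlap. Rgs8 fell by 0.50 ± 0.07, from 89.3 to 110 CPM in controls to 63.2 to 75.7 CPM. Rgs17 fell by 0.43 ± 0.08, with iKO 4 at 94.9 CPM inside the control range of 88.5 to 111 CPM and the other 5 iKO libraries at 64.0 to 73.8 CPM. The call of Rgs17 was lost without any single control and without iKO 3, 5 or 6 (adjusted p up to 0.119, without control 3, in the Benjamini-Hochberg-adjusted edgeR quasi-likelihood test).

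Several transcriptional regulators with roles outside nociceptors rose. Of 49 regulators of other neural fates 13 had enough counts to be tested. Of these 3 rose and 0 fell (median 0.31), beside 0.822% of all genes called higher and 0.588% called lower. A gene at 0 or low in controls passes such a filter only through its iKO counts, as Nkx6-2 below did. The call of Nkx6-2 is therefore a description, and this share says nothing of the untested genes. Skor2, a SKI-family corepressor, was at 10.9, 8.82, 9.99 and 11.2 CPM in controls and at 19.1 to 29.7 CPM in iKO libraries (median 23.3), an increase of 1.23 ± 0.14 on the log2 scale. Lmo1, a LIM-only cofactor, was at 12, 10.6, 10.6 and 11.1 CPM in controls and at 17.0 to 23.1 CPM in iKO libraries (median 19.8), an increase of 0.85 ± 0.09. Neither gene showed any overlap between the groups. Nkx6-2, a homeobox factor, was at 0.439, 0.392, 0.235 and 0.275 CPM in controls and at 0.757 to 1.84 CPM in iKO libraries, an increase of 2.03 ± 0.30. It shares exon bases with Inpp5a on the opposite strand, so its few counts can hold reads of that gene. Tlx3, a homeobox factor of sensory neurons, was at 42.4, 37.0, 33.3 and 45.2 CPM in controls and at 51.1 to 64.6 CPM in iKO libraries (median 54.4). Its increase of 0.50 ± 0.09 was one of 2 calls among 36 sensory neuron transcription factors, the other being Prdm12 itself (median 0.04). Tlx3 was not called without control 1, 2 or 3 (adjusted p up to 0.0899, without control 3, in the Benjamini-Hochberg-adjusted edgeR quasi-likelihood test). Runx1, Isl1 and Pou4f1, which mark nociceptors or sensory neurons at large, were not called (-0.15 ± 0.07, 0.02 ± 0.07 and 0.11 ± 0.08).

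Pdx1, a homeobox factor known from the pancreas, had counts in every iKO library and was picked with its values in view. It had 12, 21, 14, 6, 12 and 9 counts in iKO 1 to 6 and 0, 2, 0 and 0 counts in controls 1 to 4. Relative to depth, 74 iKO counts against 2 control counts gave a ratio of 21.8 (95% exact interval 5.82 to 183, for counting error only). The corn-oil controls had 0 and 1 counts. Pdx1 passed the low-count filter only through its iKO counts, so no test is given for it. Among 22 other tested members of the PRDM family and chromatin partners of PRDM12, 0 were called (median 0.02). Prdm8, a related repressor, came closest, at 9.47 to 11.2 CPM in controls and 12.6 to 15.1 CPM in iKO libraries (0.40 ± 0.09, adjusted p = 0.0549 in the Benjamini-Hochberg-adjusted edgeR quasi-likelihood test). Prdm8 was called without iKO 1 (adjusted p = 0.0119 by the same test).

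**Figure D3:**
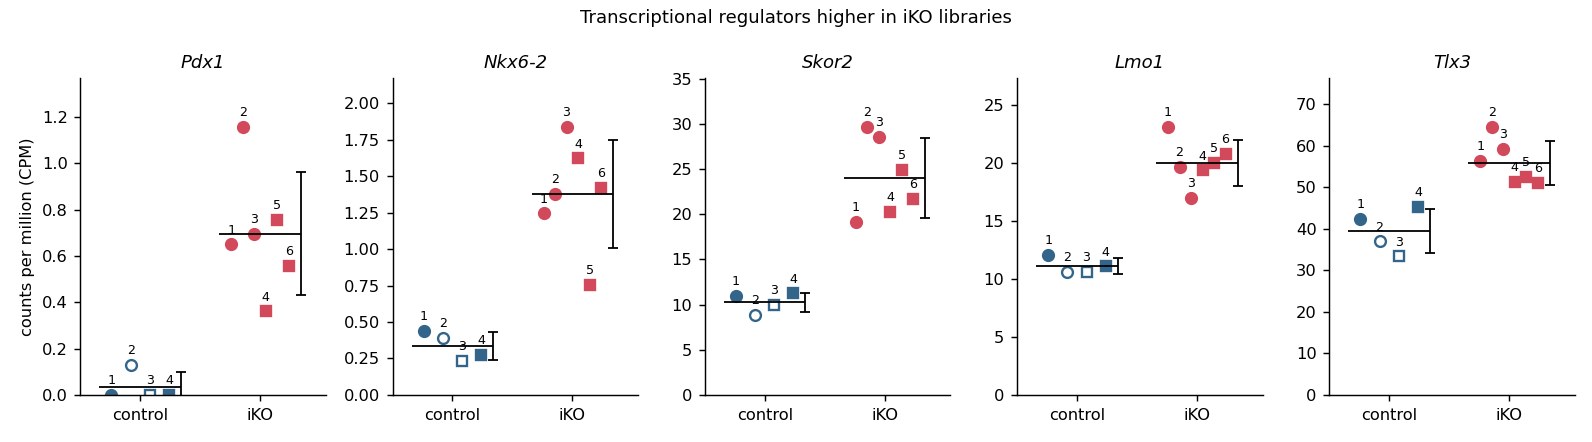
CPM (y axis, linear from 0) of 5 transcriptional regulators in each library, numbered by replicate; circles are female and squares male, open symbols are Cre-free controls, and the line and bar give the mean and SD. All 6 iKO libraries lie above all 4 controls in each panel, but Pdx1 and Nkx6-2 stay below 2 CPM while Tlx3 is at 51.1 to 64.6 CPM.

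Large increases were also found for Cyp26b1, Grem1, Wscd1 and Atp6ap1l. Cyp26b1, which breaks down retinoic acid, was at 8.59, 9.08, 7.23 and 9.84 CPM in controls and at 13.4 to 22.4 CPM in iKO libraries (median 20.3), an increase of 1.15 ± 0.14 on the log2 scale with no overlap. All 17 tested genes of retinoic acid metabolism and reception had positive fold changes (median 0.29), but Cyp26b1 alone was called, and the median was 0.09 without iKO 1. Grem1, a secreted BMP antagonist, was at 0.251, 0.457, 0.411 and 0.482 CPM in controls and at 1.04 to 1.93 CPM in iKO libraries, and it rose by 1.90 ± 0.27. It was the single call among 31 genes of BMP and TGF-β signalling (median 0.20). Grem1 had enough counts to be tested only through its iKO libraries, so its call is a description. Wscd1, a sulfotransferase-like gene, rose by 1.56 ± 0.20, from 0.882 to 1.58 CPM in controls to 2.96 to 4.92 CPM. Atp6ap1l, related to an accessory subunit of the vacuolar proton pump, rose by 1.15 ± 0.11 and was nearly even across iKO libraries, at 11.5 to 12.9 CPM against 4.27 to 6.33 CPM. Steap3, a metalloreductase of iron uptake named outside the rule, rose by 0.90, from 51.4 to 96.1 CPM on average. Of 22 axon injury and regeneration genes 2 rose and 1 fell (median 0.10), beside 1.41% of all genes called. Arid5a, an RNA- and DNA-binding factor, rose by 0.73 ± 0.09, from 13 to 16.2 CPM in controls to 22.8 to 27.5 CPM, and Tes, a focal adhesion protein gene, by 0.56 ± 0.08. Atf3, the injury factor most often used as a marker, was not called (0.27 ± 0.17).

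Among the largest decreases were genes of few counts and varied function. H2-M11, an MHC class Ib gene, was at 1.63, 3.13, 4.70 and 3.72 CPM in controls and at 0.331 to 1.14 CPM in iKO libraries, a fall of 2.36 ± 0.33 on the log2 scale. It had enough counts to be tested only through its controls, so its call is a description. Control 1 was closest to the iKO range without entering it. Creg2, a secreted glycoprotein gene, was at 21.1, 28.6, 26.4 and 27.4 CPM in controls and at 5.36 to 13.2 CPM in iKO libraries (median 9.94), a fall of 1.42 ± 0.17. Lrrn4, a leucine-rich repeat membrane protein gene, fell by 1.36 ± 0.19, from 3.59 to 4.89 CPM to 1.17 to 1.99 CPM. It was 1 of 2 calls among 55 genes of synaptic adhesion and axon guidance, beside 1.41% of all genes called. Fyb2, an adaptor gene, fell by 1.15 ± 0.16 and Sh2d4a, an SH2-domain gene, by 1.14 ± 0.17. Dpys, dihydropyrimidinase, fell by 1.15 ± 0.20 but was not called without control 1 (adjusted p = 0.0851 in the Benjamini-Hochberg-adjusted edgeR quasi-likelihood test). Insrr, an orphan-like member of the insulin receptor family, was at 5.52, 7.25, 4.58 and 4.61 CPM in controls and at 2.59 to 3.46 CPM in iKO libraries. Its fall of 0.88 ± 0.16 showed no overlap and was not called without control 1, 2 or 3 (adjusted p up to 0.0737, without control 1). Serpina1e, Olfr78 and Ascl4 fell by 1.38, 1.16 and 1.07, and each call was lost on leaving out any of 7 or 8 single libraries, all 4 controls included (adjusted p up to 0.201 for Ascl4, 0.184 for Serpina1e and 0.173 for Olfr78, each without control 1, by the same test). Serpina1e, Olfr78 and H2-M11 belong to families with similar copies, and Olfr78 shares exon bases with Olfr560, so their counts are uncertain.

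Other genes that the naming rule picked changed by small amounts or at low levels. Plec, the cytoskeletal linker plectin, was at 423, 434, 369 and 458 CPM in controls and at 479 to 651 CPM in iKO libraries, and rose by 0.43 ± 0.09 on the log2 scale. Tagln3, a neuronal actin-binding protein gene, rose by 0.39 ± 0.06, and Map7d1, a microtubule-binding protein gene, by 0.39 ± 0.07, each with no overlap between groups. Scg3, a granin of dense-core vesicles, was at 1052, 926, 1078 and 1073 CPM in controls and at 760 to 845 CPM in iKO libraries, and fell by 0.36 ± 0.07. Mdga1, a synaptic adhesion regulator gene, rose by 0.93 ± 0.19 with an overlap through iKO 1 (23.8 CPM) and control 2 (25.01 CPM), and Plk5, a polo-like kinase gene, by 0.95 ± 0.20. Unc5b, a netrin receptor, rose by 0.60 ± 0.13, with iKO 1 and control 1 both at 10.6 CPM. Fkbp5, a glucocorticoid-induced chaperone gene, rose by 0.69 ± 0.14, from 38.3 to 63.8 CPM in controls to 57.8 to 103 CPM. It was the single call among 15 glucocorticoid-responsive genes (median 0.06), beside 1.41% of all genes called. Ecel1, an injury-induced peptidase gene, fell by 1.73 ± 0.35 from a mean of 1.13 to 0.318 CPM. It had enough counts to be tested mainly through its controls, so its call is a description. Apart from Tagln3 (lost without control 1 or 3, adjusted p up to 0.0737), these calls were each lost on leaving out any of 5 to 9 single libraries, controls 1 and 3 among them in each case, with adjusted p up to 0.244 (Plec, without control 3) in the Benjamini-Hochberg-adjusted edgeR quasi-likelihood test.

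Further lists held few called members, beside 1.41% of all genes called. Of 55 amine, prostaglandin and peptide receptors 3 rose (Agtr1a, Drd1 and Cysltr2) and 1, the prostaglandin receptor Ptger3, fell (median -0.01). Of these, Drd1 was tested only through its iKO counts. Neurotrophic signalling had Ntrk3 higher and Insrr lower of 22 (median 0.04), Mas-related receptors Mrgprb5 lower of 13 (median -0.15), and ionotropic glutamate receptor subunits Grik1 lower of 17 (median 0.05). No member was called among 11 genes of C-fibre low-threshold mechanoreceptors (median -0.05), 17 p53 targets (median 0.09), 19 interferon response genes (median 0.12), 14 cell cycle genes (median -0.15) or 17 immediate early genes (median -0.10). Jun, the immediate early gene with the smallest p, was at 47.4, 66.1, 48.1 and 58.7 CPM in controls and at 63.4 to 85.7 CPM in iKO libraries, overlapping in iKO 4. It was not called (0.48 ± 0.11, adjusted p = 0.0516 in the Benjamini-Hochberg-adjusted edgeR quasi-likelihood test).

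Genes of large-diameter neurons, which sense touch and limb position, had positive fold changes in 17 of 20 cases. Their median was 0.17, against 0.01 over all genes, and 1 was called, beside 1.41% of all genes. The list median depended on the controls. It was 0.34 against the Cre-carrying and 0.05 against the Cre-free controls, and 0.05 with the corn-oil controls added. Ntrk3, the neurotrophin-3 receptor, was at 401, 496, 496 and 431 CPM in controls and at 467 to 776 CPM in iKO libraries (median 726). It rose by 0.60 ± 0.13 on the log2 scale, and iKO 1 was the single iKO library inside the control range, the other 5 being at 676 CPM or more. Ntrk3 was at the edge of the threshold (adjusted p = 0.0491 in the Benjamini-Hochberg-adjusted edgeR quasi-likelihood test) and lost its call without any of the 9 other libraries (adjusted p up to 0.208), yet was called without iKO 1 (0.69, adjusted p = 3.46e-05). Without iKO 1, 6 of the 20 genes rose, Nefm, a neurofilament gene, among them, beside 6.34% of all genes called higher in that fit, and the list median was 0.28. Of 16 pan-neuronal genes 0 were called (median 0.11), and 4 rose without iKO 1 (Tubb3, Eno2, Uchl1 and Syn1), beside the same 6.34%. Piezo2, the touch channel, was at 742 to 873 CPM in controls and at 999 to 1103 CPM in iKO 2 to 6, with iKO 1 at 775 CPM. It was not called over all libraries (0.30 ± 0.10) and was called without iKO 1 (0.35, adjusted p = 0.00168 in the Benjamini-Hochberg-adjusted edgeR quasi-likelihood test). The summed pan-neuronal genes of iKO 2 to 6 lay above every control (13475 to 14458 CPM against 12143 to 13447 CPM), and the part of this in single neuronal genes was not tested.

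Genes of myelinating Schwann cells had positive fold changes in 15 of 16 cases, with a median of 0.36 (0.27 without iKO 1). Summed over the list, iKO libraries held 5120 to 7449 CPM and controls 4513 to 5150 CPM. The ranges overlapped, with iKO 1 the highest library.

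Other cell types of the ganglion gave 0 called genes with all 10 libraries, in lists of satellite glia, non-myelinating Schwann cells, macrophages, MHC class II genes, lymphocytes, neutrophils, endothelium, mural cells, fibroblasts, erythroid cells, skeletal muscle, adipocytes and spinal cord. Medians lay between -0.34 (erythroid cells) and 0.16 (mural cells), and no listed gene was at 0 in every library. The picture differed without iKO 1. Then 6 of 18 macrophage genes fell, among them Csf1r, the receptor that macrophages need to survive, with a list median of -0.30, and 4 of 12 fibroblast genes fell, among them Dcn and Lum of the collagen matrix (median -0.21). Endothelium had 3 of 12 lower, among them Pecam1, and adipocytes 3 of 7. Of cell cycle genes 4 of 13 fell, among them Mki67 and Top2a (median -0.55). These counts stand against 3.28% of all genes called lower in that fit. Summed marker levels of iKO 2 to 6 lay below every control for macrophages (306 to 346 against 383 to 437 CPM), for fibroblasts (1595 to 1861 against 1864 to 2384 CPM) and for mural cells (352 to 373 against 387 to 451 CPM). A part of these shifts in the neuronal results was not tested.

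**Figure D4:**
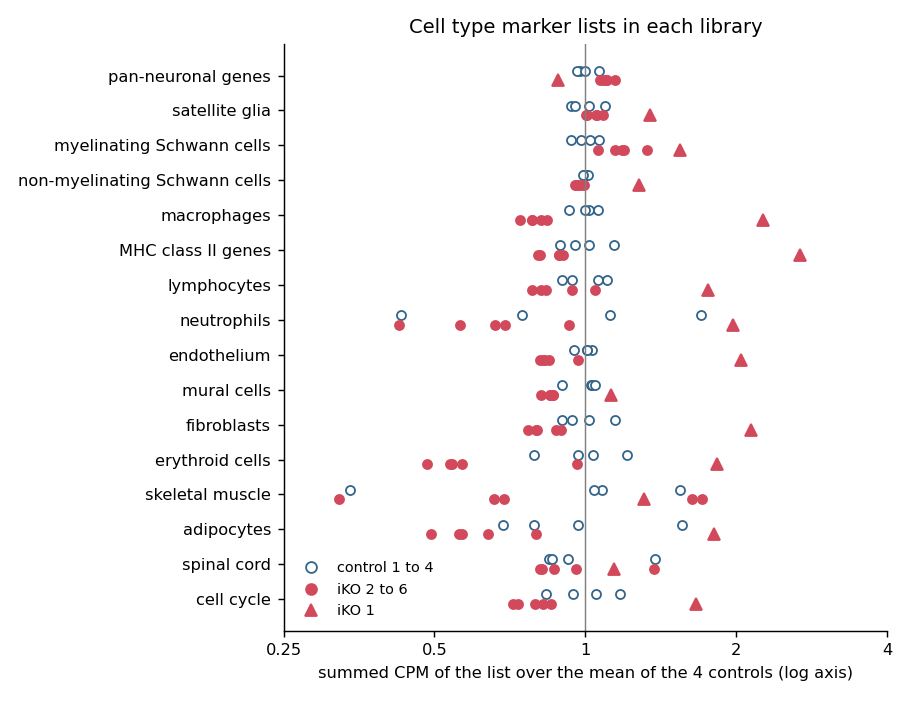
Summed CPM of cell type marker lists in each library over the mean of the 4 controls (x axis, log scale); open circles are controls, filled circles iKO 2 to 6 and triangles iKO 1. The triangle lies above the other iKO libraries for macrophages (934 against 306 to 346 CPM) and fibroblasts (4458 against 1595 to 1861 CPM) and below them for pan-neuronal genes.

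Because all iKO animals carry Cre, the controls were divided into those with Cre (1 and 4) and those without (2 and 3). Between these 2 pairs 0 of 16488 genes were called in the Benjamini-Hochberg-adjusted edgeR quasi-likelihood test (0%), with 867 at an unadjusted p under 0.05 and 1 called by DESeq2. The smallest adjusted p, 0.0539 in the same test, belonged to Caln1, a neuronal calcium-binding protein gene, which was at 18.9 and 18.4 CPM with Cre and at 40.6 and 30.0 CPM without it. Its iKO libraries ranged from 18.7 to 42.4 CPM and so spanned both. Next came H19, an imprinted non-coding RNA, at 26.7 and 24.1 CPM with Cre and 11.7 and 14.7 CPM without (log2 difference 0.94 ± 0.14). Esr1, the estrogen receptor α gene, was at 20.01 and 34.6 CPM with Cre and 13.5 and 18.1 CPM without (0.76 ± 0.13). With 2 libraries a side these differences are poorly resolved, and 46% of 1.5-fold and 77% of 2-fold changes were recovered in simulated libraries of this design.

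The changes of Prdm12, Stk32a, Mrgprb5 and Grik1 were of similar size against either kind of control. Prdm12 was at -2.50 against Cre-carrying and -2.28 against Cre-free controls, Stk32a at 1.19 and 1.28, Mrgprb5 at -1.47 and -1.52, and Grik1 at -1.04 and -0.90 on the log2 scale. Larger gaps appeared for H2-M11 (-2.04 and -2.64), Wscd1 (1.39 and 1.74), Olfr78 (-1.39 and -0.91) and Tlx3 (0.34 and 0.66). Each pair of values shares the 6 iKO libraries, and their difference was not tested. With only 2 controls 16 genes were called against the Cre-carrying (0.0934%) and 28 against the Cre-free pair (0.162%).

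**Figure D5:**
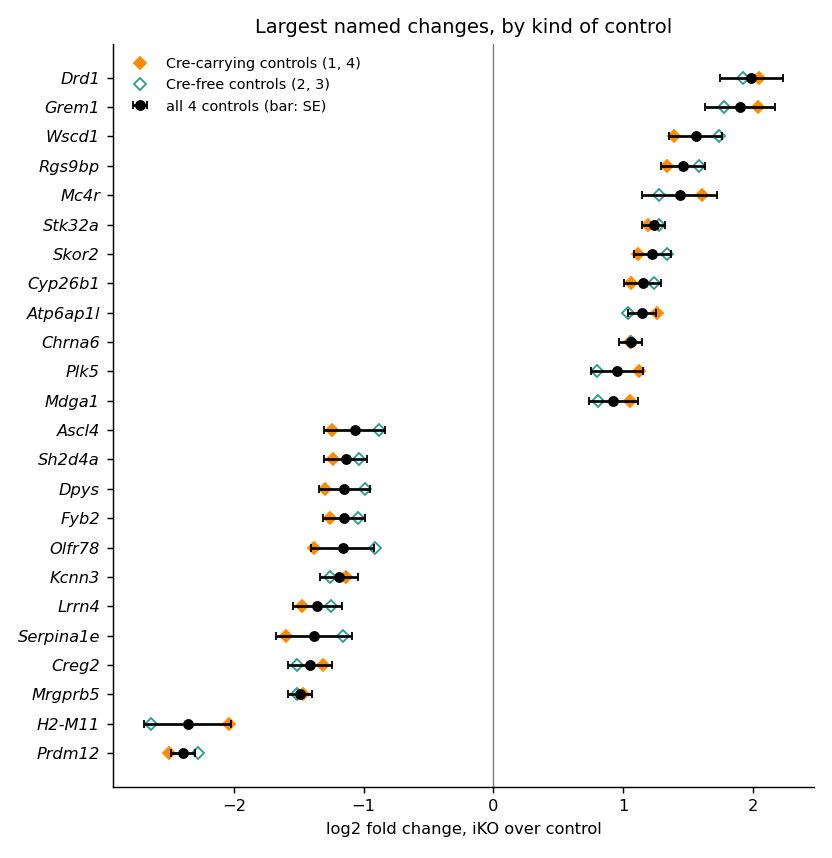
Log2 fold change of iKO over control (x axis) for the 12 highest and 12 lowest named genes; black points with SE bars use all 4 controls, filled diamonds the Cre-carrying and open diamonds the Cre-free pair. All 3 symbols lie on the same side of 0 for every gene, and for most genes within or close to the SE bar, as for Stk32a (1.19, 1.28 and 1.24).

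Each control was also left out in turn, genes were called from the other 9 libraries, and the left-out control was placed between the groups. Control 1, with Cre and 1 floxed allele, sat near the other controls, with a median difference of 0.08 on the log2 scale over 40 genes called higher and 0.02 over 28 called lower, where the iKO medians were 0.70 and -0.75. Control 3 was as close (0.01 over 38 and 0.04 over 32). Control 2 lay part of the way to the iKO side for genes called lower (-0.17 over 71 genes, against -0.60 in iKO libraries) and control 4 for genes called higher (0.14 over 160 genes, against 0.41). Control 2 carries no Cre and control 4 no floxed allele. These positions describe the spread among controls and were not tested.

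The iKO effect was also compared between the sexes, with 3 iKO libraries and 2 controls of each. The test of the difference called 0 of 16659 genes in the Benjamini-Hochberg-adjusted edgeR quasi-likelihood test (0%), with 327 at an unadjusted p under 0.05 and 0 by DESeq2. Power was low, since 1% of 1.5-fold and 32% of 2-fold differences were recovered in simulated data of this design. Prdm12 was at -2.45 in females and -2.35 in males, Mrgprb5 at -1.50 in both, Grik1 at -0.97 and -0.99, and Chrna6 at 1.01 and 1.09 on the log2 scale. Mme, which encodes the peptidase neprilysin, had the smallest unadjusted p, at -0.28 in females and 0.24 in males, and was not called (adjusted p = 1.00 in the Benjamini-Hochberg-adjusted edgeR quasi-likelihood test). Within males 122 genes were called (0.731%) and within females 1 (0.00586%), Prdm12. The female iKO group holds iKO 1, and this difference in counts is no test of a difference between the sexes.

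Adding the 2 corn-oil controls, which have the iKO genotype but no tamoxifen, changed which genes passed. With all 12 libraries 155 of 16384 genes were called (0.946%). Prdm12 in control 6 was at 64.6 CPM and in control 5 at 147 CPM, where tamoxifen-injected controls ranged from 107 to 138 CPM. Mrgprb5 was at 9.81 and 13.9 CPM in controls 5 and 6, between the iKO libraries and the tamoxifen-injected controls. Its log2 fold change was -1.49 against the tamoxifen-injected controls and -1.32 with corn oil added. Genes called here and not with corn oil added included Tlx3 (0.50 and 0.40), Kcnma1 (-0.51 and -0.42), Trpc6 (-0.49 and -0.39), Scg3 (-0.36 and -0.29), Acpp (-0.39 and -0.31), Cd55 (-0.42 and -0.33) and Mc4r (1.44 and 1.11). In each the corn-oil controls lowered the size of the difference. Insrr went the other way (-0.88 and -1.09), with 7.56 and 7.90 CPM in controls 5 and 6. Both corn-oil libraries are male and belong to a later run of sample numbers, shared with iKO 5 and 6 and with no tamoxifen-injected control, so agent and run cannot be told apart among controls. With replicates 1 to 4 alone 35 genes were called (0.211%), and Prdm12 was at -2.40.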

How the data were processed

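RNA was sequenced from poly(A) libraries that do not record strand (TruSeq), per the labels' protocols. bcl2fastq 2.20.0.422, STAR 2.7.8a, featureCounts 2.0.1 and the GRCm39 genome are listed per the submitters' processing notes. Neither the gene annotation used nor the counting options were stated in these sources. The authors deposited raw counts per gene, 55416 identifiers in each library, with no normalization. Gene symbols came from a GENCODE annotation of build GRCm38 by identifier (52083 matched, 93.99%, holding 99.7% of counts), so no gene positions are given, and promoters came from RefSeq GRCm38.p6 by symbol.

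Counts of the 10 libraries were scaled with TMM (trimmed mean of M-values), filtered with filterByExpr by group (16659 genes kept) and tested with edgeR's quasi-likelihood test (edgeR 4.0.16, limma 3.58.1, R 4.3.3) with robust estimates and sex as a term. P-values are 2-sided, with Benjamini-Hochberg adjustment over every tested gene and a call below 0.05. CPM are given with the SD and fold changes with the SE derived from the F statistic. DESeq2 1.42.0 was an alternative, as were other filters, scalings, covariates, subsets of libraries and leaving out each library. Totals of 14670363 counts or more make counting error small for most genes, so the spread between libraries sets the precision.

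The comparison, its genes and all 46 gene lists (945 entries, 941 matched) were chosen with earlier results of these data known, so their counts are descriptions, set beside those over all genes. The rule named Prdm12, Stk32a, Mrgprb5 and Grik1, the 12 highest and 12 lowest called fold changes with a mean log2 CPM not below 0 and at least 5 of 6 iKO libraries beyond the control median (no unnamed models, pseudogenes or sex-chromosome genes), the 5 called genes of highest mean CPM in each direction, up to 3 called members of each list, or its member with the smallest p, and 4 genes a direction in the smaller comparisons. Not all of these are printed, some results are not reported here, and members named only from the fit without iKO 1 were picked after their values were seen. Tested on simulated counts with 200 changed genes among 16489, the procedure recovered 61% of 1.5-fold and 85% of 2-fold changes in the main comparison, with 5.81% false calls. The simulated counts were drawn independently for each gene and library. They hold no shift shared by many genes of 1 library, as seen in iKO 1, so the simulated rates of every comparison need not hold for the real libraries. No 2 libraries held identical counts.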

Additional observations from a re-analysis of the deposited data

Results flagged for a closer look

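In 32 of 184 groups of values examined, 1 library lay farther from the rest than Dixon's 95% limit allows, where chance gives about 1 in 20, and 22 of the 32 were of iKO 1. No cause was tested.

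Marker sums account for most of these. In iKO 1 they were 11105 CPM for pan-neuronal genes (other iKO libraries 13475 to 14458), 6154 CPM for satellite glia (4595 to 4967) and 6466 CPM for non-myelinating Schwann cells (4827 to 5019). Immune markers in iKO 1 reached 934 CPM for macrophages (306 to 346), 1044 CPM for MHC class II genes (313 to 351), 89.1 CPM for lymphocytes (39.7 to 52.9) and 709 CPM for neutrophils (153 to 333). Vascular and connective tissue markers in iKO 1 reached 485 CPM for endothelium (192 to 229), 485 CPM for mural cells (352 to 373), 4458 CPM for fibroblasts (1595 to 1861) and 62.1 CPM for adipocytes (17.0 to 27.5). Erythroid genes summed to 371 CPM in iKO 1 (98.2 to 195) and cell cycle genes to 116 CPM (49.9 to 59.4).

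Single genes in iKO 1 showed the same library. Prdm12 was at 18.8 CPM (23.0 to 25.4 in the other iKO libraries), Chrna6 at 179 (232 to 259), Ntrk3 at 467 (676 to 776), Piezo2 at 775 (999 to 1103) and Kcnma1 at 65.0 CPM (85.4 to 97.5). Trem2, a microglia and macrophage receptor, was at 7.26 CPM (1.89 to 3.20), H2-DMa at 27.5 (14.2 to 16.7), Eng at 49.9 (15.3 to 21.7) and Hbb-bt at 43.9 CPM (9.20 to 21.2).

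In other iKO libraries, Mc4r stood at 3.14 CPM in iKO 2 (1.48 to 2.09), and in iKO 4 Cd55 was at 583 CPM (447 to 486) and Rgs17 at 94.9 CPM (64.0 to 73.8). Control 2 stood apart for Grik1 at 430 CPM (other controls 539 to 559), Scg3 at 926 (1052 to 1078), Mdga1 at 25.01 (16.9 to 17.8), Plin4 at 3.72 (1.38 to 1.76) and summed mural cell markers at 387 CPM (443 to 451). Control 3 did so for Dpys at 1.47 CPM (2.09 to 2.203), and control 1 for summed spinal cord markers at 34.2 CPM (21.0 to 22.9).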

How the results depend on the processing

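Prdm12 kept its direction and call under every alternative run (log2 fold change -2.50 to -2.28), and no named gene that was called changed sign under any. The count of called genes, 235 (137 higher and 98 lower), was far less stable. It was 580 (378 and 202) by DESeq2, 3173 (1946 and 1227) by limma-voom with quality weights, where iKO 1 had a weight of 0.155, and 876 (632 and 244) without the low-count filter, where the fit took the spread as common to all genes. It was 155 (88 and 67) with the corn-oil controls added, of which 130 were among the 228 of the 235 that could be tested there. It was 35 (18 and 17) with replicates 1 to 4 only, 16 (6 and 10) with the Cre-carrying and 28 (15 and 13) with the Cre-free controls only, 122 (53 and 69) in males and 1 (0 and 1) in females. Leaving out 1 library gave 69 to 1586 genes, 38 to 1045 higher and 29 to 541 lower. The RLE scaling, a CPM filter, no sex term and 12 libraries in 3 groups gave 205 to 230. Cre-carrying against Cre-free controls gave 0 called genes, but 1 by DESeq2 and 95 without the low-count filter (92 among genes that pass it), and the difference between the sexes 0, but 151 without that filter (148 among genes that pass it). Apart from the smaller number of libraries in the subsets, causes were not tested.

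With the replicate number as a block in place of sex, 55 genes (31 and 24) were called, and Prdm12 was at -2.42. Deviations of same-numbered libraries correlated at 0.24, 0.14, -0.16 and -0.02, and 2 of 4 pairs correlated best with their own number. With 4 pairs this cannot tell whether same-numbered libraries share more than a number, and the labels do not say.

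Among named genes that were not called, some fold changes did change sign. With Cre-free controls only, the log2 fold changes were 0.49 for Ly6g, 0.028 for Trpv1, 0.011 for Tac1, 0.031 for Th and -0.023 for Isl1. With Cre-carrying controls only, they were -0.026 for Gad1 and -0.043 for Drd2. In males they were -0.14 for Trem2, -0.24 for Eng, 0.043 for Tac1 and -0.043 for Atf3, and in females 0.20 for Hbb-bt, -0.24 for Gad1, -0.039 for Isl1 and -0.15 for Drd2. With the corn-oil controls added, Actn3 was at -0.43 and Tac1 at 0.096, with replicates 1 to 4 only Tac1 was at 0.041, and with the replicate block Actn3 was at -0.015 and Isl1 at -0.0022. Leaving out 1 library at a time gave ranges of -0.64 to 0.044 for Ly6g (positive without control 4), -0.087 to 0.45 for Eng (negative without iKO 1), -0.095 to 0.032 for Tac1, -0.034 to 0.046 for Isl1 and -0.077 to 0.31 for Drd2 (negative without control 3).

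Low levels limit Pdx1, Drd1, Grem1, Nkx6-2 and Mc4r, which all passed the low-count filter only through their iKO counts. In the other direction, H2-M11 passed it only through its control counts, and Ecel1 mainly through them.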

Other observations

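Further called genes outside the naming rule were picked with their values in view, among those whose call held without each library in turn. A3galt2, which encodes an enzyme of glycolipid synthesis, fell from 77.7 to 44.4 CPM on average (log2 fold change -0.81). Nt5e, the ecto-nucleotidase CD73 that produces adenosine, fell from 102 to 66.6 CPM (-0.61). Mal2, a membrane trafficking protein gene, fell from 308 to 188 CPM (-0.72), and Zmat4, a zinc finger gene, from 68.4 to 41.5 CPM (-0.72).

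In the other direction, Htr5b, a serotonin receptor, rose from 7.28 to 12.04 CPM (0.72) and Cars, a cysteinyl-tRNA synthetase gene, from 28.4 to 42.6 CPM (0.59). Fkbp1b, which encodes a protein that binds calcium release channels, rose from 144 to 196 CPM (0.45).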
